A study of Homo sapiens with 10 samples.

Results

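This account covers 9 genes of the NRF2 antioxidant pathway, taken by name from a list that was chosen with earlier results of these data known. They are the regulators NFE2L2 and KEAP1 and the target genes GCLM, GCLC, TXNRD1, SRXN1, NQO1, ME1 and HMOX1. All 9 were found by platform gene symbol among 18404 measured genes, each with 1 probe set, so no gene had a second probe set to set beside the first. The cells were HEK-293, an established line derived from human embryonic kidney, and RNA was measured on Affymetrix expression arrays 48 hours after small interfering RNAs (siRNAs) were delivered. The 10 arrays formed 5 groups of 2: LOC440173 siRNA 1 at 10 nM, LOC440173 siRNA 2 at 10 nM, the control siRNA at 10 nM, PAXIP1-AS1 siRNA at 100 nM, and the control siRNA at 100 nM. LOC440173 (now LINC02893) and PAXIP1-AS1 are long non-coding RNAs, and all groups share the lipid transfection itself. The labels give a single commercial control duplex whose sequence is not disclosed, 2 siRNAs for LOC440173 and 1 for PAXIP1-AS1. They call the 2 arrays of a group biological replicates without saying which cultures they came from, so p-values measure the spread between these arrays.

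NFE2L2 encodes NRF2, a transcription factor that is kept low because KEAP1 presents it to a CUL3 ubiquitin ligase for degradation. Oxidants and electrophiles modify cysteines of KEAP1, NRF2 then accumulates, pairs with a small MAF protein and binds antioxidant response elements near genes for glutathione synthesis, thioredoxin reduction, quinone reduction, NADPH supply and heme breakdown. NRF2 is controlled largely through its protein, so the RNA level of NFE2L2 is not a measure of its activity, and no protein was measured here. In kidney cells the pathway is known for protection against oxidant injury.

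Array medians lay between 7.06 and 7.12 (log2), and the 2 arrays of a group had Pearson r between 0.994 and 0.997 over all probe sets, a description with no test. LINC02893 differed by -0.96 with LOC440173 siRNA 1 and by -1.89 with siRNA 2 (limma adjusted p = 0.000305 and 1.38e-05), while PAXIP1-AS1 had no listed probe set and its own level was not analysed here. Of 8 markers of the line, 6 lay at or above the median level of all genes, among them VIM, KRT18, NEFL and NEFM, and KRT8 and PAX2 lay below it. Of 24 measured markers of hepatocytes, blood cells, keratinocytes, fibroblasts and endothelium, 1 did, the collagen gene COL1A1. The mean level of these 24 lay between 5.70 and 5.74 on the arrays of LOC440173 siRNA 1, between 5.56 and 5.70 with siRNA 2, between 5.50 and 5.65 in the control at 10 nM, between 5.55 and 5.60 with the PAXIP1-AS1 siRNA and between 5.57 and 5.67 in the control at 100 nM. With LOC440173 siRNA 1, 4 of the 24 were called higher and 1 lower, where 12.1% and 16.7% of all genes were. The mean level of the 8 markers of the line lay between 9.49 and 9.52 with LOC440173 siRNA 1, between 9.64 and 9.70 with siRNA 2 and at 9.67 in the control at 10 nM. It lay between 9.42 and 9.46 with the PAXIP1-AS1 siRNA and between 9.64 and 9.70 in the control at 100 nM. Among these 8 markers 1 was called higher and 2 lower with LOC440173 siRNA 1, and 2 higher and 4 lower with siRNA 2. With the PAXIP1-AS1 siRNA 0 were called higher and 2 lower. The shares over all genes, higher and lower, were 12.1% and 16.7% with siRNA 1 and 12.5% and 17.4% with siRNA 2. With the PAXIP1-AS1 siRNA they were 2.86% and 1.76%. The part of the markers in the results was not tested.

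A gene is called here when its Benjamini-Hochberg adjusted p in the limma fit over all 18404 genes is below 0.05. Of the 9 genes 3 were called with LOC440173 siRNA 1, all lower, 6 with LOC440173 siRNA 2, 5 higher and 1 lower, and 2 with the PAXIP1-AS1 siRNA, both higher. Over all genes the share called was 28.8% with LOC440173 siRNA 1 (12.1% higher and 16.7% lower), 30% with siRNA 2 (12.5% higher and 17.4% lower) and 4.62% with the PAXIP1-AS1 siRNA (2.86% higher and 1.76% lower). The median log2 fold change of the 9 genes was -0.17, 0.30 and 0.27 in these comparisons, where the median of all genes was 0.05, 0.01 and -0.01. Both LOC440173 comparisons share their control arrays. The arrays of the target siRNA and of its control did not overlap for 5 of the 9 genes with LOC440173 siRNA 1, for 7 with siRNA 2 and for 9 with the PAXIP1-AS1 siRNA, where 64.9%, 55.3% and 51.3% of all genes did not overlap. With a minimum of 1.5-fold added, SRXN1 was the 1 gene of the 9 called with LOC440173 siRNA 1 and GCLM the 1 called with siRNA 2. None of the 9 was called with the PAXIP1-AS1 siRNA. Under the same rule 1044, 1220 and 112 of all 18404 genes were called in these comparisons. An exact permutation test of 2 arrays against 2 cannot go below p = 0.333, so all calls rest on the spread pooled over the 5 groups. In bulk RNA a change in the number of cells that express a gene and a change in RNA per cell cannot be told apart.

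**Figure D1:**
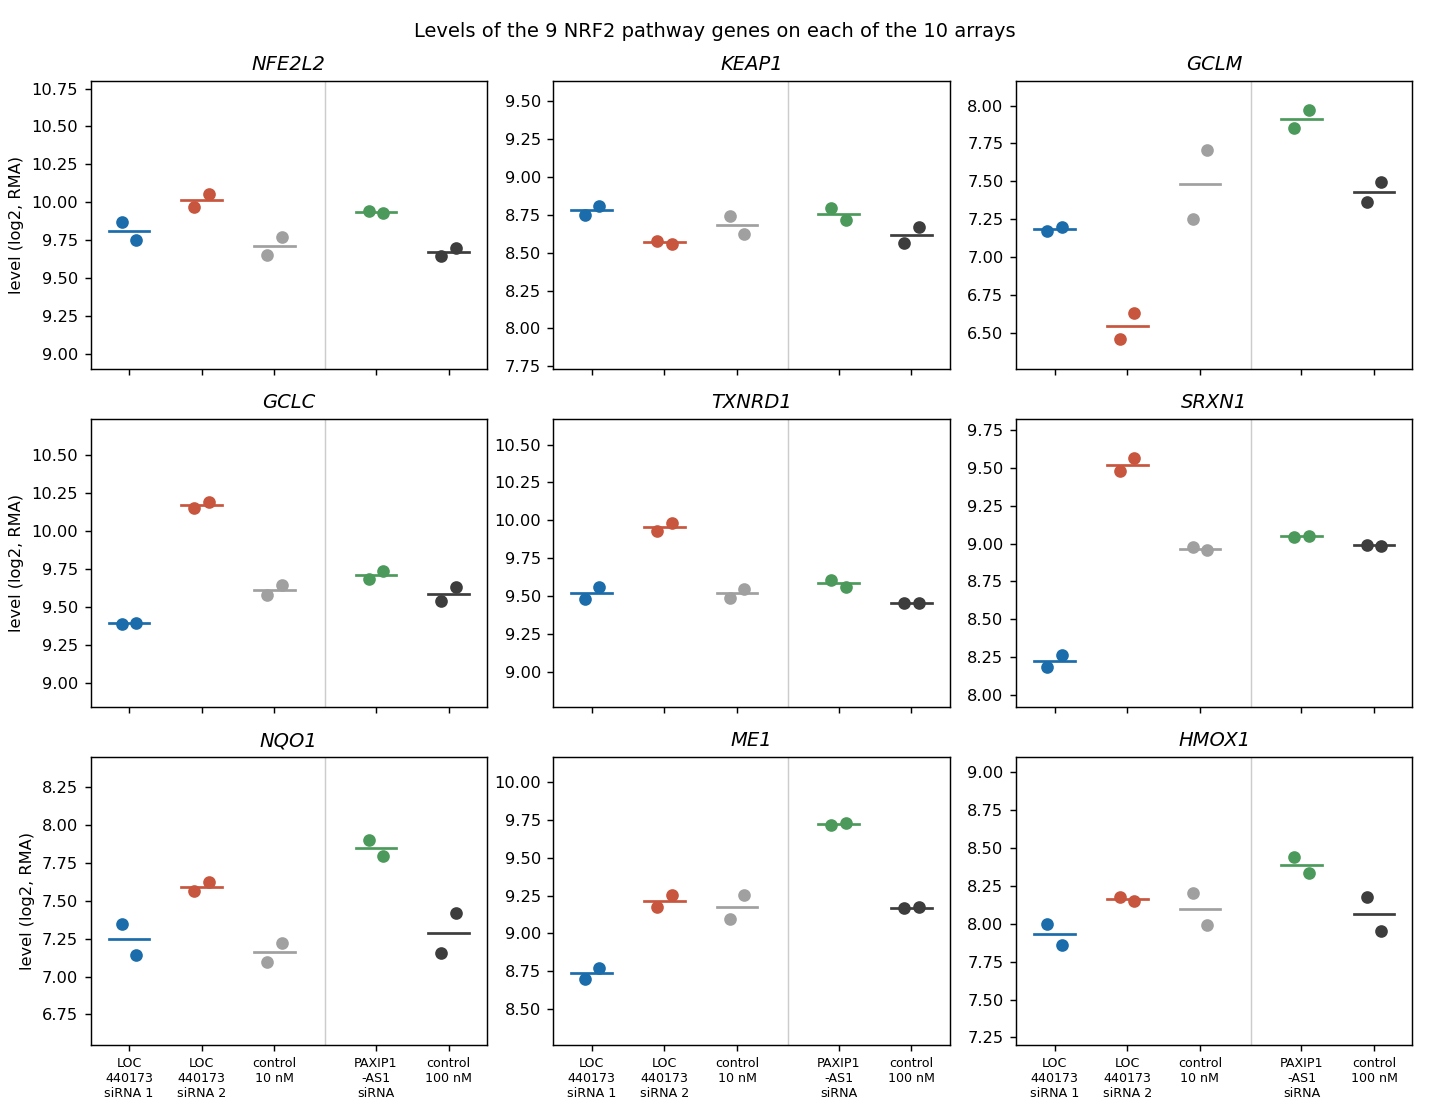
Levels (log2, RMA) of the 9 genes on each array, 1 point per array and a line at the mean of each group of 2, with every vertical axis spanning the same number of log2 units. GCLM lies lowest with LOC440173 siRNA 2, at 6.46 and 6.63, while SRXN1, GCLC and TXNRD1 lie highest there, and ME1 lies highest with the PAXIP1-AS1 siRNA.

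NFE2L2 was at 9.97 and 10.06 (log2) with LOC440173 siRNA 2, against 9.65 and 9.77 in the control at 10 nM. Both siRNA 2 arrays lay above both control arrays, and the log2 fold change was 0.30 (SE 0.065, adjusted p = 0.00939). This call was lost without control 10 nM replicate 1 (adjusted p = 0.0514) or LOC440173 siRNA 2 replicate 2 (0.0593), and in a fit of the compared arrays alone (0.0746). With LOC440173 siRNA 1 the levels were 9.87 and 9.75, which overlapped those of the control, and the difference of 0.10 (95% interval -0.05 to 0.25, adjusted p = 0.292) was not called. NFE2L2 with the PAXIP1-AS1 siRNA was at 9.94 and 9.93, against 9.64 and 9.70 in the control at 100 nM, and these groups did not overlap. The difference of 0.27 (95% interval 0.11 to 0.42) missed the threshold with an adjusted p of 0.0644, and passed it after a second quantile normalization (0.0466), without the dim genes (0.0128), under a robust prior with a trend (0.00857) and when arrays were weighted (0.0303). With each array left out in turn it stayed uncalled (from 0.0576 to 0.275).

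KEAP1, the cysteine sensor that targets NRF2 for degradation, was called in none of the 3 comparisons with a control. Its levels were 8.75 and 8.81 with LOC440173 siRNA 1, 8.58 and 8.56 with siRNA 2, and 8.74 and 8.62 in the control at 10 nM, so the siRNA 1 arrays lay just above and the siRNA 2 arrays just below both control arrays. The differences were 0.10 (95% interval -0.05 to 0.25) and -0.11 (95% interval -0.26 to 0.04). KEAP1 with the PAXIP1-AS1 siRNA was at 8.79 and 8.72, against 8.57 and 8.67 in the control at 100 nM, a difference of 0.14 (95% interval -0.01 to 0.29, adjusted p = 0.298). KEAP1 had the smallest range of group means among the 9 genes, 0.21, and 71.4% of all genes had a larger one.

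Glutamate-cysteine ligase makes the first and rate-limiting step of glutathione synthesis. Its catalytic subunit GCLC and its modifier subunit GCLM, which lowers the feedback inhibition by glutathione, moved in opposite directions with LOC440173 siRNA 2. GCLC was at 10.15 and 10.19 with this siRNA, against 9.58 and 9.65 in the control at 10 nM, a rise of 0.56 (SE 0.055, adjusted p = 0.00021). GCLM was at 6.46 and 6.63, against 7.25 and 7.71, a fall with a log2 fold change of -0.94 (SE 0.14, adjusted p = 0.00151). In both genes the groups did not overlap.

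With LOC440173 siRNA 1 GCLC was at 9.39 and 9.40, below both control arrays, and the log2 fold change was -0.22 (SE 0.055, adjusted p = 0.0201). The call was lost without control 10 nM replicate 2 (adjusted p = 0.0955), LOC440173 siRNA 1 replicate 1 (0.0952) or replicate 2 (0.0844), and in a fit of the compared arrays alone (0.0803). GCLM was at 7.17 and 7.20 with this siRNA, also below both control arrays. Its difference of -0.29 (95% interval -0.61 to 0.03, adjusted p = 0.154) was not called, but with a replicate block it was (0.0465). It rested on the control arrays: without control 10 nM replicate 1 it was -0.52 and called (0.00943), and without control 10 nM replicate 2 it was -0.066 (0.718).

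With the PAXIP1-AS1 siRNA GCLM was at 7.85 and 7.97, against 7.36 and 7.50 in the control at 100 nM. These groups did not overlap, and the difference of 0.48 (95% interval 0.16 to 0.80) had an adjusted p of 0.103. With a replicate block it was called (adjusted p = 0.0299). It was called under a robust prior with a trend (adjusted p = 0.037), when arrays were weighted (0.0305) and without either array of the control at 10 nM (0.0245). Without any 1 of the other 8 arrays it was not called (up to 0.421). GCLC was at 9.68 and 9.74, against 9.54 and 9.63, with a difference of 0.13 (95% interval -0.001 to 0.26, adjusted p = 0.276).

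The promoter windows of these genes were taken from RefSeq (GRCh38.p14), 250 bases before to 50 after each gene start, and searched on both strands for the core TGACNNNGC of the antioxidant response element. Windows were held for 8 of the 9 genes (11 windows, since NFE2L2, KEAP1 and TXNRD1 had 2 starts each). The core was found in 5 of these 11 windows, those of GCLM, ME1, both starts of TXNRD1 and 1 start of KEAP1. Of all 35116 promoter windows of this length 13.3% held it. A match is a string of letters and not a measured binding site. The core can overlap the AP-1 site TGACTCA, which 4.95% of all windows held and, among the 11, that of ME1. The windows of NFE2L2, GCLC, SRXN1 and NQO1 held no match in this stretch, and that of HMOX1 was not searched.

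GCLM and ME1 are shown in full because each held a match and these genes had the widest and the third widest range of group means among the 9. The core is in capitals, read 5′ to 3′ along the gene, so that a match on the opposite strand appears as GCNNNGTCA. The GCLM window is chr1:93909381-93909680 (minus strand), and its single match begins at base -34 from the gene start. The ME1 window is chr6:83431002-83431301 (minus strand), with matches that begin at -137 and at 12, the first of them overlapping an AP-1 site.
GCLM: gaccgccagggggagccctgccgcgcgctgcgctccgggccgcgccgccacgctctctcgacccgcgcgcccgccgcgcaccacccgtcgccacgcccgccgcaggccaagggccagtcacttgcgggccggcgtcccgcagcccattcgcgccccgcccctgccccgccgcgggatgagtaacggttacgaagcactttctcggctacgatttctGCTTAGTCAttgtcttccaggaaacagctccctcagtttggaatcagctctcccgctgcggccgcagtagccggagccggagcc
ME1: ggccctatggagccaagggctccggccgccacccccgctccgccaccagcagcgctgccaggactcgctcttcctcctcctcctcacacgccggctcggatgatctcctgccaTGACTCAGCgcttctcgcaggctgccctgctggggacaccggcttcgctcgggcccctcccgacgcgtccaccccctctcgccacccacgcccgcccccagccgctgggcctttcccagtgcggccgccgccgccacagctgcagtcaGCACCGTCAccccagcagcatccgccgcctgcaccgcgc

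The matches of TXNRD1 and KEAP1 are shown with 10 bases on each side, to set their centres beside those of GCLM and ME1. The letters of the KEAP1 match at -31 and of the GCLM match are the same. The TXNRD1 matches lie at chr12:104215680-104215688, chr12:104215771-104215779 and chr12:104286930-104286938 (plus strand), and those of KEAP1 at chr19:10502817-10502825 and chr19:10502794-10502802 (minus strand).
TXNRD1, start 1, at -99: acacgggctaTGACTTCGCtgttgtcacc
TXNRD1, start 1, at -8: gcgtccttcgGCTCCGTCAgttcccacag
TXNRD1, start 2, at -102: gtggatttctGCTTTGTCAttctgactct
KEAP1, start 2, at -54: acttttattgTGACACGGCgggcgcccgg
KEAP1, start 2, at -31: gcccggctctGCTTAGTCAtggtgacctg

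**Figure D2:**
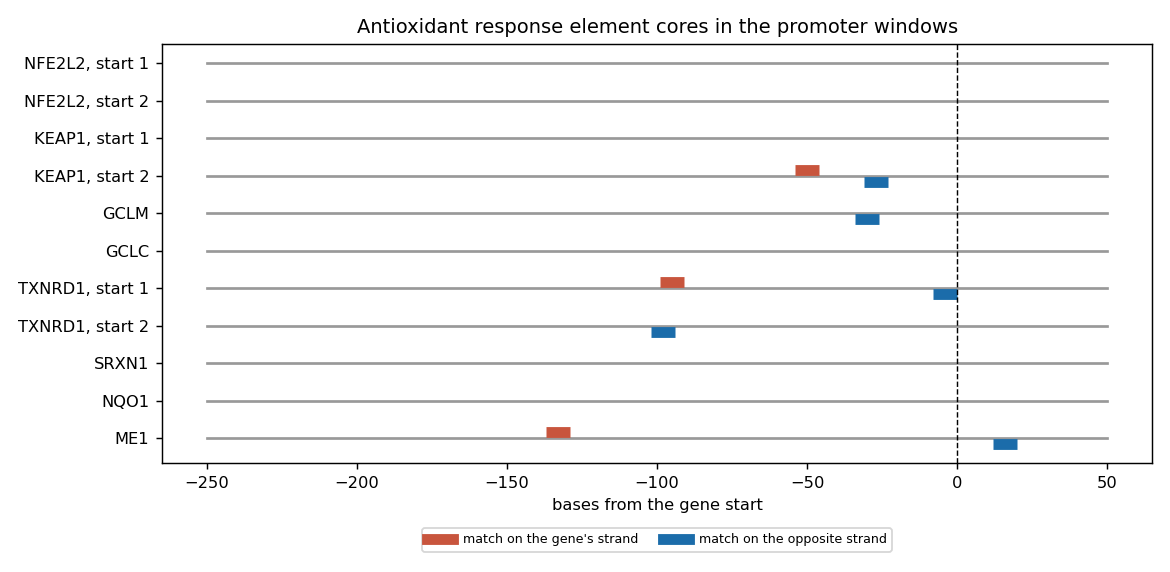
Positions of the core TGACNNNGC in the 11 promoter windows, in bases from the gene start, with 1 line per start and 1 block per match, above the line on the gene's strand and below it on the opposite strand. The 5 windows with a match belong to GCLM, ME1, TXNRD1 and KEAP1, while the windows of NFE2L2, GCLC, SRXN1 and NQO1 are empty.

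Among the genes called with LOC440173 siRNA 2, GCLM, whose window holds a match, fell and TXNRD1, whose windows hold matches, rose. GCLC, SRXN1, NQO1 and NFE2L2, whose windows hold none, also rose. Only 250 bases before to 50 after each gene start were searched, so a core farther away would be missed. Binding was not measured.

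TXNRD1, the selenoprotein that returns thioredoxin to its reduced form, was at 9.93 and 9.98 with LOC440173 siRNA 2, against 9.49 and 9.55 in the control at 10 nM. The rise of 0.44 (SE 0.054, adjusted p = 0.000608) was called, and both siRNA 2 arrays lay above all other arrays of the series. With LOC440173 siRNA 1 TXNRD1 was at 9.48 and 9.56, overlapping the control, with a difference of 0.00 (95% interval -0.12 to 0.13). With the PAXIP1-AS1 siRNA it was at 9.61 and 9.56, against 9.46 and 9.46 in the control at 100 nM, a difference of 0.13 (95% interval 0.00 to 0.25, adjusted p = 0.262).

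SRXN1 encodes sulfiredoxin, which repairs over-oxidized peroxiredoxins with ATP. It was called with both LOC440173 siRNAs, in opposite directions. It was at 8.18 and 8.26 with siRNA 1, at 9.48 and 9.56 with siRNA 2, and at 8.98 and 8.96 in the control at 10 nM, with no overlap between the groups. The log2 fold change was -0.74 with siRNA 1 (SE 0.053, adjusted p = 5.37e-05) and 0.55 with siRNA 2 (SE 0.053, adjusted p = 0.000183). SRXN1 with the PAXIP1-AS1 siRNA was at 9.05 on both arrays, against 8.99 on both arrays of the control at 100 nM. The difference of 0.06 (95% interval -0.06 to 0.18, adjusted p = 0.635) was not called.

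NQO1, a quinone reductase that spends NADPH or NADH and is a standard marker of NRF2 activity, rose with LOC440173 siRNA 2 and with the PAXIP1-AS1 siRNA. It was at 7.56 and 7.62 with LOC440173 siRNA 2, against 7.10 and 7.22 in the control at 10 nM, a rise of 0.43 (SE 0.11, adjusted p = 0.0163). This call was lost without control 10 nM replicate 1 (adjusted p = 0.0821) or LOC440173 siRNA 2 replicate 2 (0.0782), and when arrays were weighted (0.0575). With LOC440173 siRNA 1 NQO1 was at 7.35 and 7.14, a difference of 0.09 (95% interval -0.16 to 0.33). With the PAXIP1-AS1 siRNA it was at 7.90 and 7.80, above the 7.15 and 7.42 of the control at 100 nM. The rise was 0.56 (SE 0.11, adjusted p = 0.027), and the call was lost without control 100 nM replicate 1 (adjusted p = 0.145), PAXIP1-AS1 siRNA replicate 1 (0.167) or replicate 2 (0.123), and in a fit of the compared arrays alone (0.0857).

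ME1, the cytosolic malic enzyme that makes NADPH while turning malate into pyruvate, fell with LOC440173 siRNA 1 and rose with the PAXIP1-AS1 siRNA. It was at 8.70 and 8.77 with LOC440173 siRNA 1, below the 9.09 and 9.25 of the control at 10 nM. The fall had a log2 fold change of -0.44 (SE 0.065, adjusted p = 0.00185). With LOC440173 siRNA 2 it was at 9.18 and 9.26, a difference of 0.04 (95% interval -0.11 to 0.19). With the PAXIP1-AS1 siRNA ME1 was at 9.71 and 9.73, against 9.17 and 9.17 in the control at 100 nM, higher than on all other arrays. The rise was 0.55 (SE 0.065, adjusted p = 0.00489), and its call, though not its size, was lost without control 100 nM replicate 1 (adjusted p = 0.0513), PAXIP1-AS1 siRNA replicate 1 (0.0539) or replicate 2 (0.0582).

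HMOX1, the inducible heme oxygenase that breaks heme into biliverdin, iron and carbon monoxide, was not called against a control in any comparison. It was at 8.00 and 7.86 with LOC440173 siRNA 1, at 8.18 and 8.15 with siRNA 2, and at 8.20 and 7.99 in the control at 10 nM. The differences were -0.17 (95% interval -0.40 to 0.06) and 0.06 (95% interval -0.17 to 0.29). With the PAXIP1-AS1 siRNA it was at 8.44 and 8.34, above the 8.18 and 7.96 of the control at 100 nM. The difference of 0.32 (95% interval 0.09 to 0.55) had an adjusted p of 0.122. It was called without the dim genes (0.0359), under a robust prior with a trend (0.0487) and with a replicate block (0.0244). With each array left out in turn it stayed uncalled (from 0.0930 to 0.431).

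**Figure D3:**
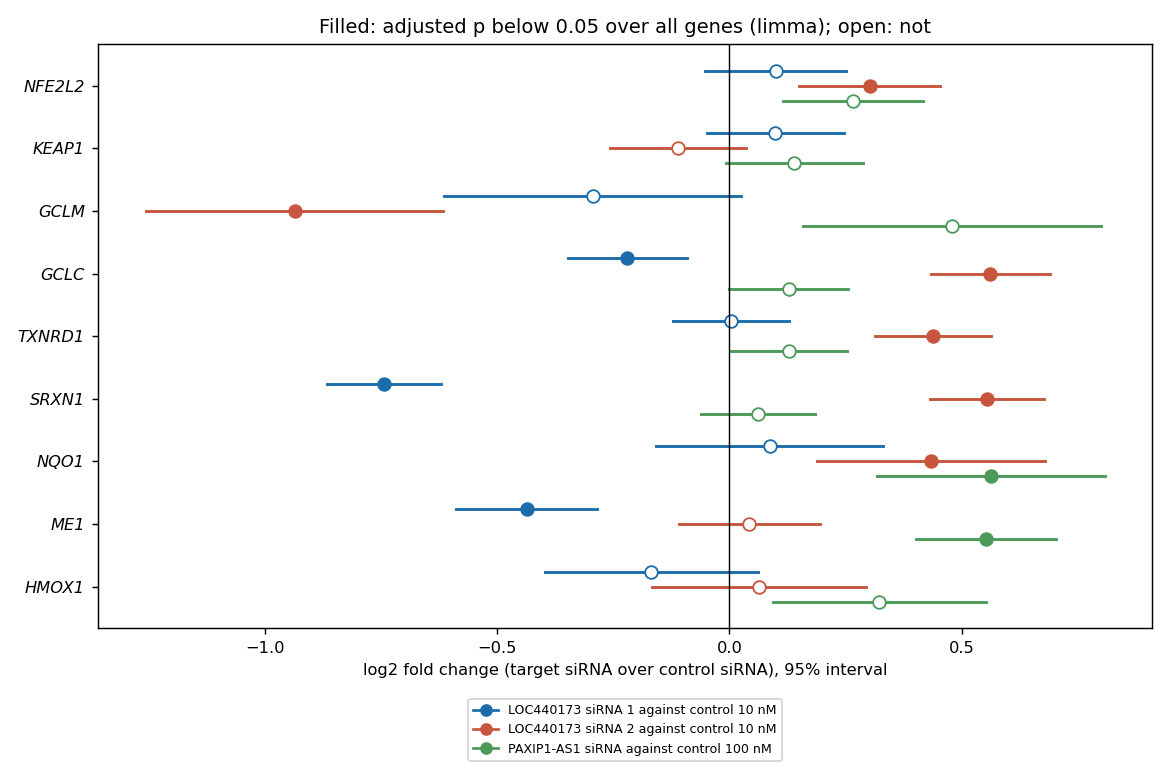
Log2 fold changes of the 9 genes (target siRNA over the control siRNA of the same dose) with their 95% intervals in 3 comparisons, filled where the adjusted p over all genes was below 0.05. SRXN1 and GCLC are filled on opposite sides of 0 with the 2 LOC440173 siRNAs, and with the PAXIP1-AS1 siRNA all 9 values are above 0 while only those of NQO1 and ME1 are filled.

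The 2 LOC440173 siRNAs were also compared directly, since a gene called with one and not with the other is not thereby shown to differ. Of the 9 genes 8 were called, 6 higher and 2 lower with siRNA 2 than with siRNA 1, where 37.1% of all genes were called (18.2% higher and 19% lower). The arrays of the 2 siRNAs did not overlap for any of the 9 genes, and over all genes they did not for 66.4%. SRXN1 differed most, at 1.30 (SE 0.053, adjusted p = 3.15e-06), or 2.46-fold. GCLC differed by 0.78 (SE 0.055, adjusted p = 2.29e-05), ME1 by 0.48 (SE 0.065, 0.000671) and TXNRD1 by 0.43 (SE 0.054, 0.000394). GCLM was lower with siRNA 2 than with siRNA 1, at -0.64 (SE 0.14, adjusted p = 0.0071). These 5 calls held without any single array.

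The other 3 calls of this comparison were smaller. NQO1 differed by 0.35 (adjusted p = 0.0334), NFE2L2 by 0.20 (0.0419) and KEAP1 by -0.21 (0.0328), while HMOX1 differed by 0.23 (95% interval 0.00 to 0.46, adjusted p = 0.110). With a replicate block HMOX1 was called (0.0170). The HMOX1 difference was called without the dim genes (0.0466), and stayed uncalled with each array left out in turn (from 0.0795 to 0.397). The NQO1 call was lost without LOC440173 siRNA 1 replicate 2 (adjusted p = 0.199), siRNA 2 replicate 1 (0.0720) or siRNA 2 replicate 2 (0.138). The KEAP1 call was lost without siRNA 1 replicate 1 (0.0758), siRNA 1 replicate 2 (0.159), siRNA 2 replicate 1 (0.0817) or siRNA 2 replicate 2 (0.122), and after a second quantile normalization (0.0527). The NFE2L2 call was lost without siRNA 1 replicate 2 (0.231), siRNA 2 replicate 1 (0.0517), siRNA 2 replicate 2 (0.203), either control 100 nM array (0.0603) or either PAXIP1-AS1 siRNA array (0.0691), and in a fit of the compared arrays alone (0.0946).

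The effect of the PAXIP1-AS1 siRNA was then set against that of each LOC440173 siRNA, each relative to the control of its own dose. Against siRNA 1 it was higher for 5 of the 9 genes and lower for none, where 16.8% of all genes were called (11% higher and 5.82% lower). The differences of these effects were 0.99 for ME1 (SE 0.093, adjusted p = 0.000467), 0.80 for SRXN1 (SE 0.075, 0.000459), 0.77 for GCLM (SE 0.20, 0.0318), 0.35 for GCLC (SE 0.078, 0.0208) and 0.49 for HMOX1 (SE 0.14, 0.0497). Those of ME1 and SRXN1 held without any single array. The GCLM call was lost without either array of LOC440173 siRNA 1, of the control at 100 nM or of the PAXIP1-AS1 siRNA (adjusted p from 0.0596 to 0.110). The GCLC call was lost without control 10 nM replicate 2, control 100 nM replicate 1, or either array of LOC440173 siRNA 1 or of the PAXIP1-AS1 siRNA (from 0.0511 to 0.0869). The HMOX1 call was lost without any array but control 10 nM replicate 2 and control 100 nM replicate 1 (from 0.0679 to 0.155), and after a second quantile normalization (0.0772), in a fit of every probe set (0.0521) and of the compared arrays alone (0.0679). NQO1, which was not called (adjusted p = 0.0679), was called under a robust prior with a trend (0.0429) and without control 100 nM replicate 2 (0.0354). The count of 5 dropped most without either array of LOC440173 siRNA 1 or of the PAXIP1-AS1 siRNA, or without control 100 nM replicate 1. Calls over all genes were not counted in these omissions.

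Against siRNA 2 the effect of the PAXIP1-AS1 siRNA was called higher for GCLM and ME1 and lower for GCLC, SRXN1 and TXNRD1, where 17.2% of all genes were called (11.2% higher and 6.04% lower). The difference of effects was 1.41 for GCLM (SE 0.20, adjusted p = 0.00245) and 0.51 for ME1 (SE 0.093, 0.00797). It was -0.49 for SRXN1 (SE 0.075, adjusted p = 0.00362), -0.43 for GCLC (SE 0.078, 0.00785) and -0.31 for TXNRD1 (SE 0.076, 0.0279). The TXNRD1 call was lost without control 10 nM replicate 1 (adjusted p = 0.0670), LOC440173 siRNA 2 replicate 2 (0.0817), control 100 nM replicate 1 (0.0800) or 2 (0.0831), or PAXIP1-AS1 siRNA replicate 1 (0.0674) or 2 (0.107). KEAP1, which was not called (0.103), was called without the dim genes (0.0316). NFE2L2 itself differed by -0.04 between these effects (95% interval -0.25 to 0.18).

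For the 9 genes the control at 100 nM differed from that at 10 nM by between -0.06 and 0.13. With 2 arrays per dose, a difference that was not called is not thereby shown to be absent. The arrays of the 2 doses did not overlap for 2 of the 9 genes, where 25.8% of all genes did not overlap. None of the 9 and none of all 18404 genes was called by limma, the only tool run (0%). At an unadjusted p below 0.05 there were 0 of the 9 and 692 of all genes, or 3.76%.

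The order of the group means differed between the genes. ME1, GCLM, NQO1 and HMOX1 were highest with the PAXIP1-AS1 siRNA, SRXN1, GCLC, TXNRD1 and NFE2L2 with LOC440173 siRNA 2, and KEAP1 with LOC440173 siRNA 1. The control levels at 10 and 100 nM were not called apart for any of the 9 genes. The range of group means was 1.36 for GCLM, 1.30 for SRXN1, 0.98 for ME1 and 0.78 for GCLC, against a median of 0.30 over all genes. The shares of genes with a larger range were 1.36%, 1.70%, 4.56% and 8.94%. Among 3045 other genes, none below the median gene level and each with group means that ranged by 0.5 or more, the levels most like those of GCLM over the 10 arrays were those of TWSG1 (Pearson r = 0.981), H2BC7 (0.980), STARD5 (0.978), MGAT4A (0.977) and CAMK2N1 (0.976). These coefficients describe 10 arrays in 5 groups of 2 and carry no test.

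Beyond the 9 genes, 53 other genes of the pathway were listed, and 46 of them were measured. With LOC440173 siRNA 1, 6 of the 46 were called higher and 16 lower (median -0.06), with siRNA 2 12 higher and 10 lower (median 0.02), and with the PAXIP1-AS1 siRNA 3 higher and 1 lower (median 0.03). Over all genes the shares called higher and lower were 12.1% and 16.7% with LOC440173 siRNA 1, 12.5% and 17.4% with siRNA 2, and 2.86% and 1.76% with the PAXIP1-AS1 siRNA, and the medians were 0.05, 0.01 and -0.01. Genes named for a comparison are the called ones with the largest change, and those added after their values were seen are PGD, TALDO1, TKT, EPHX1 and FTL with siRNA 1, and SLC7A11, GSS, GSR, FECH, PGD, TALDO1, TKT and FTL with siRNA 2.

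Of 6 measured genes of glutathione supply and recycling, 0 were called higher and 2 lower with LOC440173 siRNA 1. With siRNA 2, 3 were called higher and 2 lower, and with the PAXIP1-AS1 siRNA 1 higher and 0 lower. The shares over all genes, higher and lower, were 12.1% and 16.7% with siRNA 1 and 12.5% and 17.4% with siRNA 2. With the PAXIP1-AS1 siRNA they were 2.86% and 1.76%. SLC7A11, which imports the cystine that glutathione synthesis needs, was at 7.62 and 7.60 with LOC440173 siRNA 1, at 10.36 and 10.43 with siRNA 2, and at 9.89 and 10.09 in the control at 10 nM. It was at 10.77 and 10.88 with the PAXIP1-AS1 siRNA, against 9.95 and 10.04 in the control at 100 nM. The log2 fold changes were -2.38, 0.41 and 0.83 (adjusted p = 3.63e-06, 0.00541 and 0.00199). In a fit of the compared arrays alone the siRNA 2 call was lost (adjusted p = 0.0527). MGST1, a membrane glutathione transferase, fell with both LOC440173 siRNAs, at -1.05 and -1.81 (adjusted p = 0.000817 and 5.3e-05). With siRNA 2 the glutaredoxin GLRX fell (-1.36, adjusted p = 0.000221), while glutathione synthetase GSS and glutathione reductase GSR rose by 0.34 and 0.31 (0.00246 and 0.00162).

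All 4 measured genes listed under NADPH supply were called lower with LOC440173 siRNA 1, where 16.7% of all genes were. Of these, TALDO1 and TKT are pentose phosphate pathway enzymes that do not make NADPH themselves. IDH1, the cytosolic isocitrate dehydrogenase, was at -0.69, PGD of the pentose phosphate pathway at -0.53, TALDO1 at -0.53 and TKT at -0.32 (adjusted p from 0.000234 to 0.00245). With siRNA 2 IDH1 (-1.23, adjusted p = 1.82e-05), TKT (-0.26, 0.00575) and PGD (-0.21, 0.0184) fell and TALDO1 differed by 0.08 (0.294), where ME1 was not called. The PGD call with siRNA 2 was lost without control 10 nM replicate 2 (adjusted p = 0.0743) or siRNA 2 replicate 1 (0.0903), in a fit of the compared arrays alone (0.129) and when arrays were weighted (0.0548), and that of TKT in a fit of the compared arrays alone (0.0795). None of the 4 was called with the PAXIP1-AS1 siRNA.

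Of 6 measured genes of heme and iron handling, 1 was called higher and 2 lower with LOC440173 siRNA 1. With siRNA 2, 3 were called higher and 1 lower, and with the PAXIP1-AS1 siRNA 2 higher and 0 lower. The shares over all genes are those given above for glutathione supply. FECH, which inserts iron to complete heme, fell with LOC440173 siRNA 1 (-1.09, adjusted p = 3.47e-05) and rose with siRNA 2 (0.31, 0.0109). The call of the rise was lost without siRNA 2 replicate 2 (adjusted p = 0.0638) and in a fit of the compared arrays alone (0.0798). FTL, the ferritin light chain, was at 11.04 and 11.13 with siRNA 1, at 10.85 and 10.90 with siRNA 2, and at 10.64 and 10.72 in the control at 10 nM. It was at 10.88 and 10.97 with the PAXIP1-AS1 siRNA, against 10.56 and 10.62 in the control at 100 nM. FTL thus lay above its control with each target siRNA, with differences of 0.41, 0.19 and 0.34 (adjusted p = 0.00197, 0.0495 and 0.0251). The siRNA 2 call was lost whichever of the 10 arrays was left out (adjusted p from 0.0524 to 0.185). The PAXIP1-AS1 call was lost without control 100 nM replicate 1 (0.153) or 2 (0.0971) or PAXIP1-AS1 siRNA replicate 1 (0.0989) or 2 (0.189), and in a fit of the compared arrays alone (0.0815). ABCB6, a porphyrin transporter, rose by 0.24 with the PAXIP1-AS1 siRNA (adjusted p = 0.0393), a call lost without any array other than those of the control at 10 nM (from 0.0594 to 0.220), under a robust prior with a trend (0.0723) and in a fit of the compared arrays alone (0.116).

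Of 14 measured genes of carbonyl, quinone and conjugate handling, 2 were called higher and 4 lower with LOC440173 siRNA 1. With siRNA 2, 1 was called higher and 2 lower, and with the PAXIP1-AS1 siRNA 0 higher and 1 lower. The shares over all genes are again those given above. EPHX1, the microsomal epoxide hydrolase, fell with each target siRNA. It was at 9.66 and 9.71 with LOC440173 siRNA 1, at 9.53 and 9.58 with siRNA 2, and at 10.11 and 10.17 in the control at 10 nM. It was at 9.78 and 9.80 with the PAXIP1-AS1 siRNA, against 10.13 and 10.15 in the control at 100 nM. The log2 fold changes were -0.45, -0.59 and -0.35 (adjusted p = 0.000428, 0.000102 and 0.0102), and the groups did not overlap. The PAXIP1-AS1 call was lost without control 100 nM replicate 1 (adjusted p = 0.0729) or 2 (0.0747) or PAXIP1-AS1 siRNA replicate 1 (0.0938) or 2 (0.0878), and in a fit of the compared arrays alone (0.0569). UGDH, which makes the UDP-glucuronate used in conjugation, fell with siRNA 1 (-0.62, adjusted p = 0.00138). With siRNA 2 the efflux pump ABCC2 rose by 0.59 and the related pump ABCC1 fell, at -0.48 (0.000775 and 0.000314). Of 11 other measured regulators, 3 were called higher and 3 lower with siRNA 1, and 4 higher and 2 lower with siRNA 2. With the PAXIP1-AS1 siRNA 0 were called. BTRC, an adaptor of a KEAP1-independent ubiquitin ligase for NRF2, fell with siRNA 1 (-0.89, adjusted p = 4.49e-05). BACH2, a repressor related to BACH1, was higher with siRNA 2 than with siRNA 1 by 0.68 (8.6e-05).

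**Figure D4:**
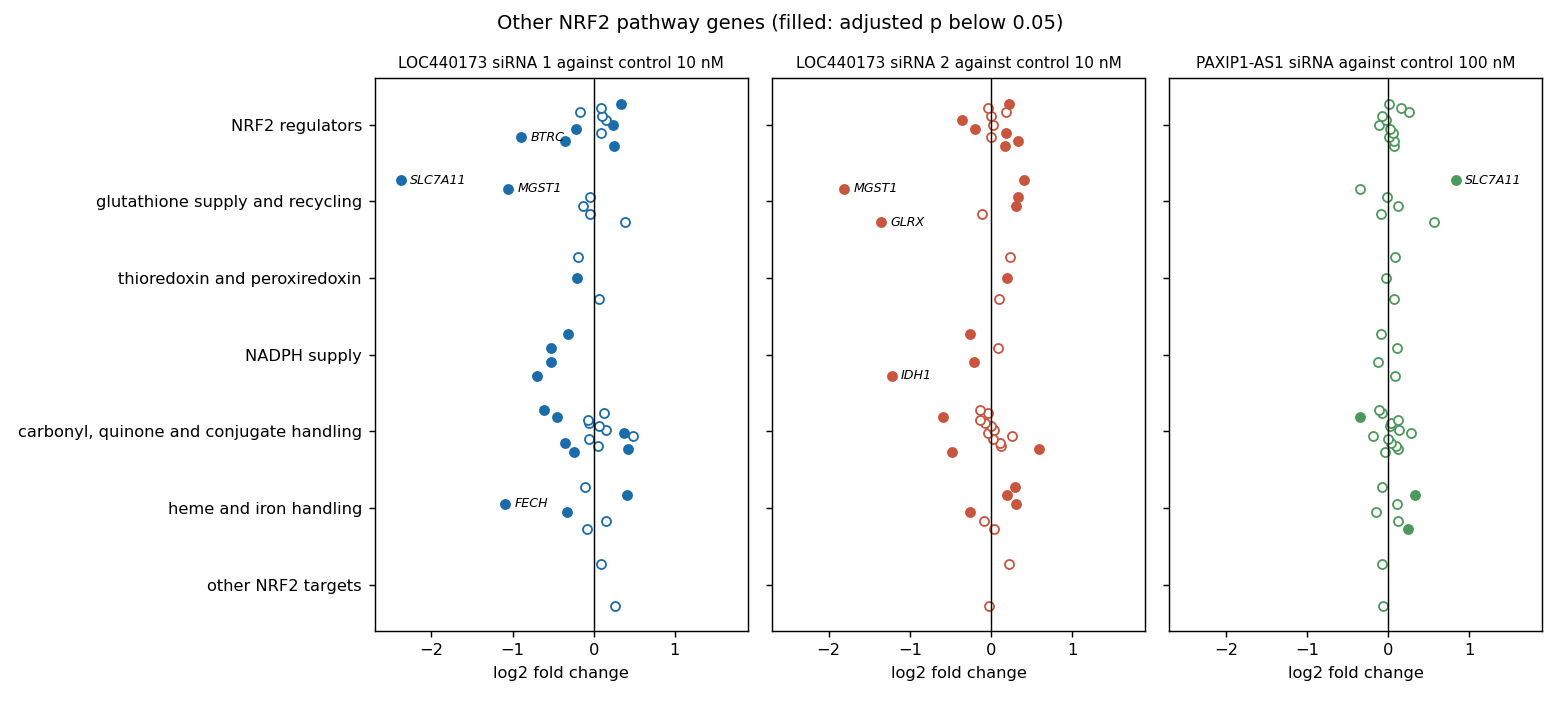
Log2 fold changes of the 46 other measured genes of the pathway, 1 point per gene, in rows by group and in 3 panels by comparison, filled where the adjusted p was below 0.05 and named beyond 0.8 in either direction. The 4 genes listed under NADPH supply are filled left of 0 with LOC440173 siRNA 1. SLC7A11 lies at -2.38 there and at 0.83 with the PAXIP1-AS1 siRNA.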

How the data were processed

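The authors deposited log2 values, 1 per probe set and array (32321 probe sets, 10 arrays). RMA and limma are named without versions, per the submitters' processing notes. No array definition file, genome build or filter is stated in the labels. Scanner intensities were not used here, so signal over background is unknown, and the number of arrays limits the precision. Platform annotation gave 1 symbol for 19158 probe sets, several for 1388 and none for 11775. The brightest probe set stood for each of 637 genes with several. RefSeq held 18376 gene IDs, lacked 29 and changed 0 symbols.

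All arrays entered 1 limma fit (3.58.1, R 4.3.3) of group means with eBayes (5 residual and 2.87 prior degrees of freedom), two-sided, adjusted over 18404 genes, and SE and intervals come from it. The code was tested on simulated data. Members and lists were chosen with earlier results of these data known. Other pathway genes were named by the 6 largest called changes per comparison, and further ones as stated. Alternatives were a second quantile normalization, 2 other ways to treat probe sets, removal of genes below the median level, fits of the compared arrays alone, a robust prior with a trend, a 1.5-fold minimum, a replicate block, array weights and omission of each array.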

Additional observations from a re-analysis of the deposited data

Results flagged for a closer look

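For 8 of the 9 genes the level differed between the 2 LOC440173 siRNAs by the direct limma contrast of siRNA 2 with siRNA 1. In this contrast 37.1% of all genes were called. The siRNAs also differed in the fall of LINC02893 given above. The depth of silencing cannot be told apart from other effects of each siRNA. The differences were 1.30 for SRXN1, 0.78 for GCLC, 0.48 for ME1, 0.43 for TXNRD1, 0.35 for NQO1, 0.20 for NFE2L2, -0.21 for KEAP1 and -0.64 for GCLM (log2). The count of 8 dropped most without LOC440173 siRNA 1 replicate 2, siRNA 2 replicate 1 or siRNA 2 replicate 2. Fewer of all genes were called in each of these omissions too. The calls of NQO1, NFE2L2 and KEAP1 were each lost in at least 3 omissions of a single array. With 2 arrays per group no array could be tested as an outlier.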

How the results depend on the processing

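Among 1183 values of the 9 genes under the alternatives, 1061 kept direction and side of the threshold, 82 lost a call (20 of them under the 1.5-fold minimum), 19 gained one and 21 changed sign, none of the last called. The cause of these changes was not tested, except that fits of the compared arrays alone have fewer arrays and the 1.5-fold minimum removes small changes. GCLM and NQO1 lie below the median level and have no value without the dim genes. In fits of the compared arrays alone 3494 genes were called with LOC440173 siRNA 1 and 2788 with siRNA 2. With the PAXIP1-AS1 siRNA 181 were called (1 of the 9 among them). With a 1.5-fold minimum the calls were 1 of the 9 and 1044 of all genes with LOC440173 siRNA 1. With siRNA 2 they were 1 and 1220, and between the siRNAs 3 and 1944. Under this minimum the PAXIP1-AS1 comparison gave 0 and 112. Of the 9, 3 and 1 were then called for the effect of the PAXIP1-AS1 siRNA against those of siRNA 1 and siRNA 2. For these differences of effects, calls over all genes were not counted under any alternative. Without the dim genes only those at or above the median level were fitted, 7 of the 9 among them. The PAXIP1-AS1 comparison then gave 3 of these 7 and 1879 genes, a count out of fewer genes than the others. Over all genes it gave 5 of the 9 and 1784 genes under a robust prior with a trend. With array weights it gave 4 of the 9 and 1544 genes. Omitting each array in turn gave 2 to 4 of the 9 and 3294 to 5663 genes with LOC440173 siRNA 1, 4 to 6 and 4190 to 5155 with siRNA 2, 5 to 8 and 5229 to 7152 between the siRNAs, 0 to 3 and 110 to 895 with the PAXIP1-AS1 siRNA, 2 to 4 and 4 to 5 of the 9 for the differences of effects, and 0 between the control doses.

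Deviations of same-numbered arrays from the group means correlated at 0.07 to 0.09 for pairs with LOC440173 siRNA 1 and at 0.29 to 0.53 for pairs among the other 4 groups. The labels give no shared batch or day, and the numbers were not taken as pairing because not all pairs of groups passed 0.1. This reason covers the pairs with LOC440173 siRNA 1 and not those among the other 4 groups. Without the block 2 of the 9 and 850 genes were called with the PAXIP1-AS1 siRNA. With the replicate block 4 of the 9 and 6739 genes were called with LOC440173 siRNA 1, 6 and 6329 with siRNA 2, 9 and 7777 between the siRNAs, 4 and 1325 with the PAXIP1-AS1 siRNA, 0 between control doses, and 5 of the 9 for each difference of effects. The calls it added were GCLM with LOC440173 siRNA 1 (adjusted p = 0.0465), HMOX1 between the siRNAs (0.0170), and GCLM (0.0299) and HMOX1 (0.0244) with the PAXIP1-AS1 siRNA.

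The sign changes were all at most 0.18 in size. After a second quantile normalization the difference of the control doses was 0.023 for ME1 and that of the effects of PAXIP1-AS1 siRNA and LOC440173 siRNA 1 was -0.014 for KEAP1. With each array omitted in turn, LOC440173 siRNA 1 gave TXNRD1 -0.036 to 0.041 and NQO1 -0.018 to 0.19, and siRNA 2 gave ME1 -0.037 to 0.12 and HMOX1 -0.041 to 0.17. The control doses gave HMOX1 -0.14 to 0.079, NFE2L2 -0.097 to 0.018, GCLM -0.28 to 0.18, GCLC -0.077 to 0.019, ME1 -0.085 to 0.076 and NQO1 -0.0071 to 0.26. The PAXIP1-AS1 effect minus that of siRNA 1 gave KEAP1 -0.017 to 0.10, and minus that of siRNA 2 NFE2L2 -0.094 to 0.022 and NQO1 -0.0052 to 0.26.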
